A study of Mus musculus with 4 samples.

Results

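Apoe, Apoc1, Apoc4 and Apoc2 lie side by side on mouse chromosome 7, and chromatin accessibility across this apolipoprotein cluster was compared between 2 ATAC-seq libraries labelled WT and 2 labelled IRF8KO. The window was the gene bodies of the 4 genes with 20 kb on each side, which overlap and form 1 interval, chr7:19651579-19719188 in GRCm38, counted once. All deposited peaks overlapping it were taken. They numbered 78 of 676057 peaks in the 4 lists, and 24 of the 155546 regions obtained by merging the stronger peaks of all libraries fell in the window. The cluster was chosen on measured values of these same libraries, so what follows is a description with no test. ATAC-seq reads out accessible DNA through the sites at which the Tn5 transposase inserts adapters. The cells were microglia, the resident macrophages of the brain, isolated without enzymes and sorted by flow cytometry from untreated C57BL/6 mice aged 3 months. The groups were WT (replicates 1 and 2) and IRF8KO (replicates 1 and 2), IRF8 being an interferon regulatory factor that myeloid cells use together with PU.1 to control transcription. The labels describe no transgene, Cre driver or other shared allele. They do not say that the replicates came from separate animals, so the spread between them may be technical.

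Apolipoprotein E is a protein of lipid particles that is recognised by receptors of the low density lipoprotein family. In the brain it is made mainly by astrocytes, and microglia raise it when they leave their resting state in disease models. Apolipoprotein C-II activates lipoprotein lipase, apolipoprotein C-I inhibits several enzymes and transfer proteins of plasma lipoproteins, and apolipoprotein C-IV is a less studied member made mainly in liver. In macrophages the oxysterol receptors of the LXR family raise transcription of these genes through enhancers that the genes share.

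The sequences below are those under the summits on which the comparison turns, read from GRCm38 on the minus strand, the strand of all 4 genes. Capitals mark letters matching a searched motif on either strand. From Apoc2 to the Apoe start, the tallest IRF8KO summits lay between Apoc4 and Apoc1, and the interval covering the leading pair is shown first, with a RUNX match (AACCACA) and a CEBP match (TTGCNNAA).
Apoc4 to Apoc1 interval, chr7:19683734-19684020: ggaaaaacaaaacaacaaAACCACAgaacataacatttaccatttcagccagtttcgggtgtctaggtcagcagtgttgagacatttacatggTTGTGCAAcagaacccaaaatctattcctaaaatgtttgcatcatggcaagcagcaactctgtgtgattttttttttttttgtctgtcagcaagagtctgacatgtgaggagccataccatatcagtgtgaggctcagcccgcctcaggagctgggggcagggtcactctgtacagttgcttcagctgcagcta
The next sequence surrounds a summit between Apoc1 and Apoe that both IRF8KO lists placed at the same base and neither WT list held. It carries a GC box (GGGCGG), an E-box (CACGTG) and a direct repeat of the LXR type (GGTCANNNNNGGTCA).
Apoc1 to Apoe interval, chr7:19693451-19693651: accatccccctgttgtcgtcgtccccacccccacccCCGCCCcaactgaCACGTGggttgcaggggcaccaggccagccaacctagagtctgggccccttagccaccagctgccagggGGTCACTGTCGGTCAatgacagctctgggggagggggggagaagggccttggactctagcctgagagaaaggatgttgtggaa
Upstream of Apoe, the first sequence is the part of the Apoe start region that lies before the gene, which held no searched motif. The second surrounds the farther summit of the neighbouring region, with an AP-1 match (TGANTCA) and an interferon response type match (GAAANNGAAA).
Apoe start region, upstream part, chr7:19699189-19699327: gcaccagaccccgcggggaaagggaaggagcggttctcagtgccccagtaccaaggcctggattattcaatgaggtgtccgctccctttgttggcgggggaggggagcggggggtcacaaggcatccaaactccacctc
Upstream neighbour of the Apoe start, chr7:19699724-19699924: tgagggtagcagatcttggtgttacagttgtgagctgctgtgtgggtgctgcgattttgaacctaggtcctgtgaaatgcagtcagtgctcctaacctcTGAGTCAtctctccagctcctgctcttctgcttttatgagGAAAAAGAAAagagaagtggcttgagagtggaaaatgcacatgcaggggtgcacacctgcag
The Apoc2 intron held an E-box, and the Apoc1 intron a STAT match (TTCNNNGAA) and GC boxes.
Apoc2 intron, chr7:19675917-19676117: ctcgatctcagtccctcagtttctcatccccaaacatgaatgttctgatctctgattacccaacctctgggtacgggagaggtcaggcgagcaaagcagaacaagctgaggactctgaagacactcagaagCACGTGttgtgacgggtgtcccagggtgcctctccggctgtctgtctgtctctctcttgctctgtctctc
Apoc1 intron, chr7:19691975-19692175: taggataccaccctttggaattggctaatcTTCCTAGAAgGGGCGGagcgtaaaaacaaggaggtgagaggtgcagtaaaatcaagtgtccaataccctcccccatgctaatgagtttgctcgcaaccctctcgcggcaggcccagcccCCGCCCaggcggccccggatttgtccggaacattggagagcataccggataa
For contrast, the last sequence is from a region before Apoc2 that was lower in IRF8KO. Its capitals are an ETS-IRF composite match (GGAANNGAAA), the kind of element at which IRF8 binds with PU.1, overlapping a PU.1 match (GAGGAAGT).
Clptm1 to Apoc2 interval, chr7:19667509-19667709: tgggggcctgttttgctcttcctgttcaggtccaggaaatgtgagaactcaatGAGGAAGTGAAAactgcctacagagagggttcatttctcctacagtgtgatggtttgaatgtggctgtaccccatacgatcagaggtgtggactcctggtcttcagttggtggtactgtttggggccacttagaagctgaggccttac

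WT replicates 1 and 2 were called from 46948938 and 48896408 tags, per the file headers, and IRF8KO replicates 1 and 2 from 78793572 and 66224648. IRF8KO was thus 1.51 times as deep on average, and the tag size was 50 bp in WT and 49 bp in IRF8KO, so that depth and tag size cannot be told apart from genotype. Heights are given below as scaled pileup, the depth of cut sites extended to 73 bp at the highest summit of a region, per 1000000 header tags. The labelled cell type was checked at promoters. Of 8 microglia markers, 8 and 8 had a strict promoter peak (−log10 q of at least 2) in WT and 7 and 7 in IRF8KO, and their summed promoter pileup per 1000000 tags was 25.3 and 18.0 in WT and 9.95 and 16.6 in IRF8KO. Of 6 markers of border macrophages, 3 and 3 had one in WT and 5 and 5 in IRF8KO, with sums of 2.36 and 1.78 against 4.02 and 6.09, and Lyve1 had no promoter region in any library. The 3 monocyte markers, Ly6c2, Ccr2 and Plac8, had no promoter region either. Sums of 6 astrocyte markers overlapped between the genotypes, at 3.05 and 2.17 against 2.01 and 3.67, and Aqp4 had no promoter region. Among them Aldh1l1 was higher in both IRF8KO libraries, at 0.405 and 0.204 against 0.850 and 1.53, while Slc1a3, the largest term in WT, gave 1.94 and 1.62 against 0.749 and 1.66, and Slc1a2 was listed in WT replicate 1 alone. The 4 endothelial markers summed to 6.73 and 5.38 in WT and to 0.927 and 1.34 in IRF8KO, and Tek had no promoter region. Most of this sum was Cdh5 alone, at 5.86 and 4.81 against 0.647 and 0.936. Pecam1 gave 0.618 and 0.573 against 0.279 and 0.408, and Cldn5 was listed in WT replicate 1 alone. Sums were also lower in both IRF8KO libraries for 4 oligodendrocyte markers (2.05 and 1.47 against 0.495 and 1.15), 4 neutrophil markers (1.19 and 0.614 against 0.178 and 0.453) and 4 neuronal markers (1.02 and 1.10 against 0.546 and 0.589). The 4 B or T cell markers summed to 0.234 and 0.225 in WT and to 0.140 and 0 in IRF8KO. Of 12994 protein-coding promoters listed in all 4 libraries, 40.1% were lower in both IRF8KO libraries and 4.15% higher. No cell content is therefore read from the lower sums. The part of border macrophages, astrocytes or other cells in the differences below was not tested. At the Irf8 promoter the scaled pileup was 2.07 and 1.49 in WT and 0.863 and 1.36 in IRF8KO, which does not check a deletion whose position the labels do not give.

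Between Apoc2 and the sequence upstream of Apoe, the lists held few and low peaks in WT and more and taller peaks in IRF8KO. The window held 14 and 15 strict peaks in WT and 21 and 20 in IRF8KO, or 14.5 ± 0.707 against 20.5 ± 0.707 (SD, n = 2 each). The groups did not overlap, and they did not overlap when all deposited peaks were counted, at 16 and 17 against 22 and 23. Strict peaks covered 3646 and 3415 bp in WT and 5722 and 5734 bp in IRF8KO. A deeper library lists weak peaks more readily, and the part of depth in these counts was not tested. Over the whole genome WT had 97473 and 98863 strict peaks of 143525 and 177972 listed, and IRF8KO had 83996 and 95921 of 180970 and 173590.

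Of the 24 regions, numbered R1 to R24 in genome order, 13 had a listed peak in all 4 libraries. Among these 13, the scaled pileup of 7 was higher in both IRF8KO than in both WT libraries, against 11.9% of 58109 such regions genome-wide. It was lower in both IRF8KO libraries for 4, against 37.1% genome-wide, and 2 overlapped. Since the cluster was chosen on such values, nothing is read from the difference between these shares. With libraries scaled instead to an equal median over the 58109 regions, the genome-wide shares became 30.03% higher and 28.7% lower, and in the window 8 were higher and 2 lower. The median log2 ratio of the 13 regions was 0.80, which is 1.08 above the median of −0.28 over all 58109 regions. Without IRF8KO replicate 2 the window median was 0.40, against −0.62 over all regions. By the deposited fold enrichment, a height over background treated below, it was −0.28, against −0.09 over all regions. In bulk chromatin, more cells with an open site and a more open site per cell cannot be told apart.

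Regions with a strict peak in both IRF8KO libraries and no listed peak in either WT library numbered 3 (3.86% of all regions have this pattern), and the converse pattern numbered 0 (5.58% of all regions). A further region, at the Apoc4 start, was listed in both IRF8KO and in no WT library, and 2 were listed in 1 IRF8KO library alone. A region without a listed peak has no value here and is not a 0. Within the window the lowest pileup that a list held was 10 and 9 tags for WT, and 16 and 9 for IRF8KO.

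The patterns were ordered along the chromosome. Before Apoc2, 8 regions held 0 of the higher and 4 of the lower ones. From Apoc2 to the Apoe start, 11 regions held 3 higher and 0 lower ones together with the 3 IRF8KO-only regions, and 4 and 3 of the 11 were strict in WT against 9 and 10 in IRF8KO. Upstream of Apoe, 5 regions held 4 higher and 0 lower ones, with 5 of them strict in each library. This order is that of the scaled pileup and depends on the scale. By the deposited fold enrichment R17, R21 and R22 were lower in IRF8KO and R6 was higher. With equal medians R6 was higher too, and R2 and R4 overlapped.

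**Figure D1:**
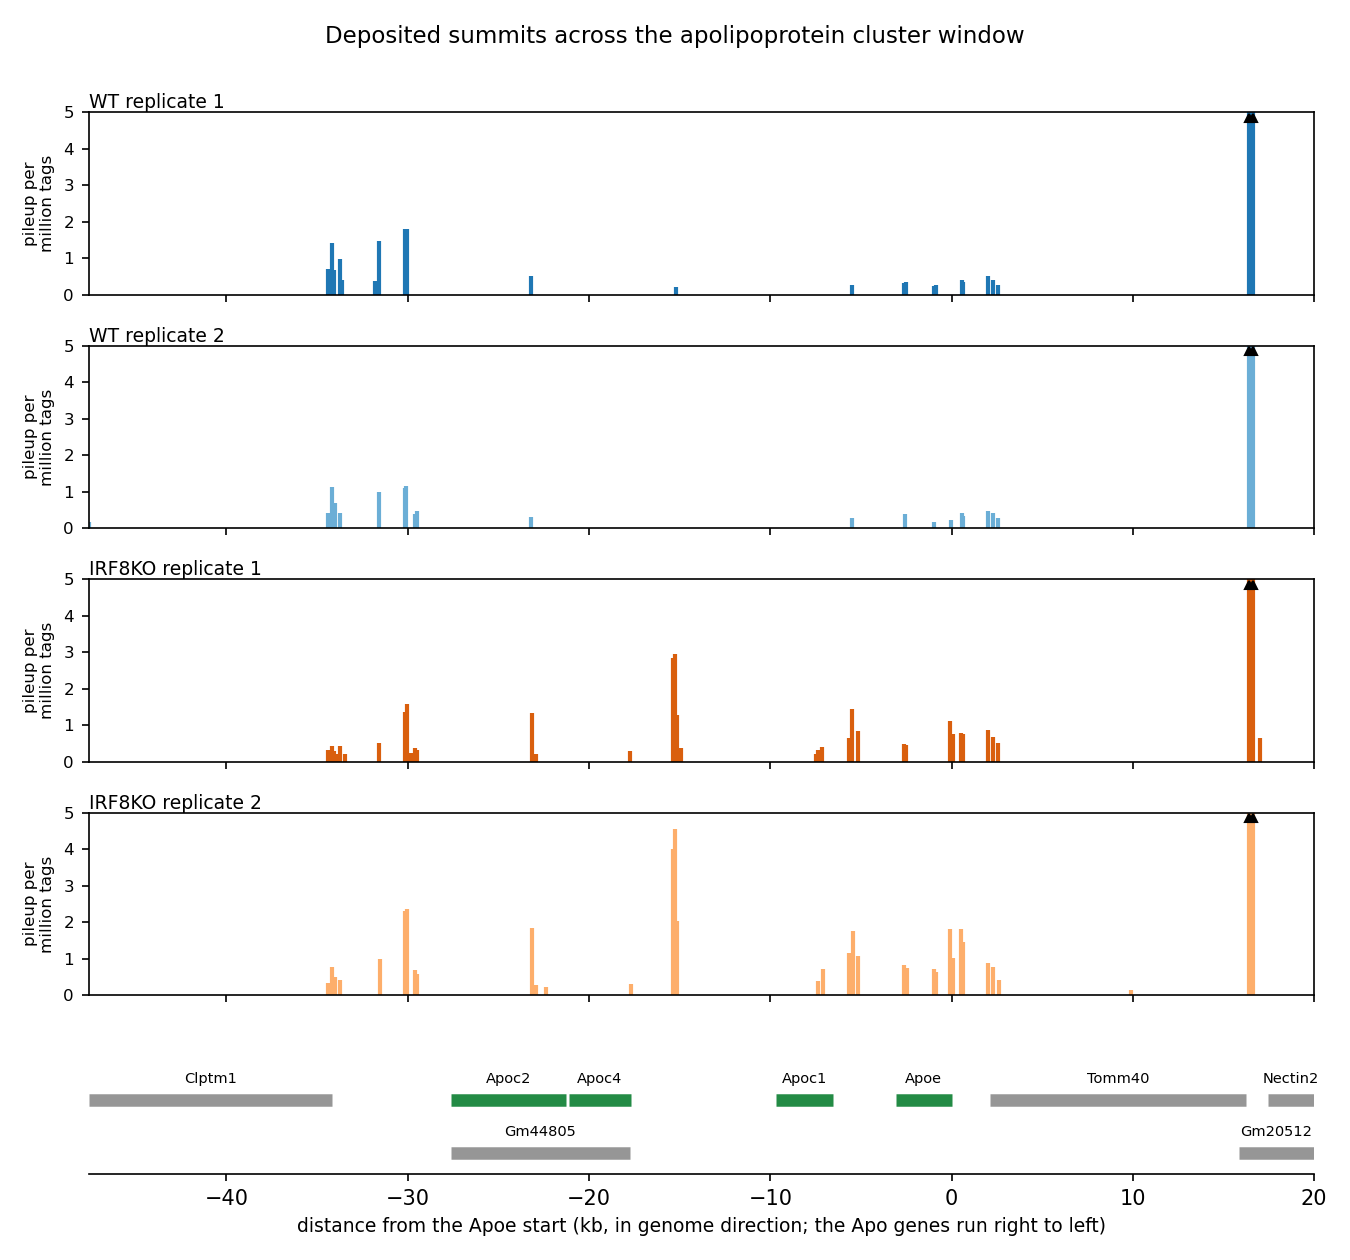
Each vertical line is a deposited summit, its height the scaled pileup (axis cut at 5, triangles mark taller summits), plotted by distance in kb from the Apoe start for each library, with genes beneath (Apo genes in green). The tall summits between Apoc4 and Apoc1 reach 2.94 and 4.56 in IRF8KO, against 1 summit of 0.213 in WT replicate 1 and none in WT replicate 2.

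The largest log2 ratio of the window was at R13 (chr7:19683716-19684338), between Apoc4 and Apoc1, with its highest summit 15243 bp downstream of the Apoe start. The pileup was 10 tags in WT replicate 1, not listed in WT replicate 2, 232 tags in IRF8KO replicate 1 and 302 tags in IRF8KO replicate 2. The scaled pileup was 0.213 in WT replicate 1 against 2.94 and 4.56 in IRF8KO. Both IRF8KO libraries were thus far above the single WT value, 17.6-fold on the mean (log2 ratio 4.14), a ratio that rests on WT replicate 1 alone.

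Ranked within their own lists, 3.81% and 2.75% of strict IRF8KO peaks were taller than R13, while 85.0% of strict peaks of WT replicate 1 were. The authors' −log10 q at its best summit was 3.20 in WT replicate 1 and 230 and 317 in IRF8KO. The shape recurred between replicates. The 3 tallest summits were at 19683803, 19683946 and 19684066 in IRF8KO replicate 1 and at 19683809, 19683945 and 19684067 in replicate 2. Over the window, 25 of 31 summits of IRF8KO replicate 2 in a region shared with replicate 1 lay within 20 bp of one of its summits.

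A height relative to another peak of the same library does not depend on the tag total. The peak at the start of Tomm40, the gene next to Apoe that encodes a subunit of the mitochondrial import channel, was the tallest of the window in every library. R13 reached 1.89% of its height in WT replicate 1 and 38.9% and 44.5% in IRF8KO. This ratio shows unequal change of the 2 peaks, not that the Tomm40 peak did not change.

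**Figure D2:**
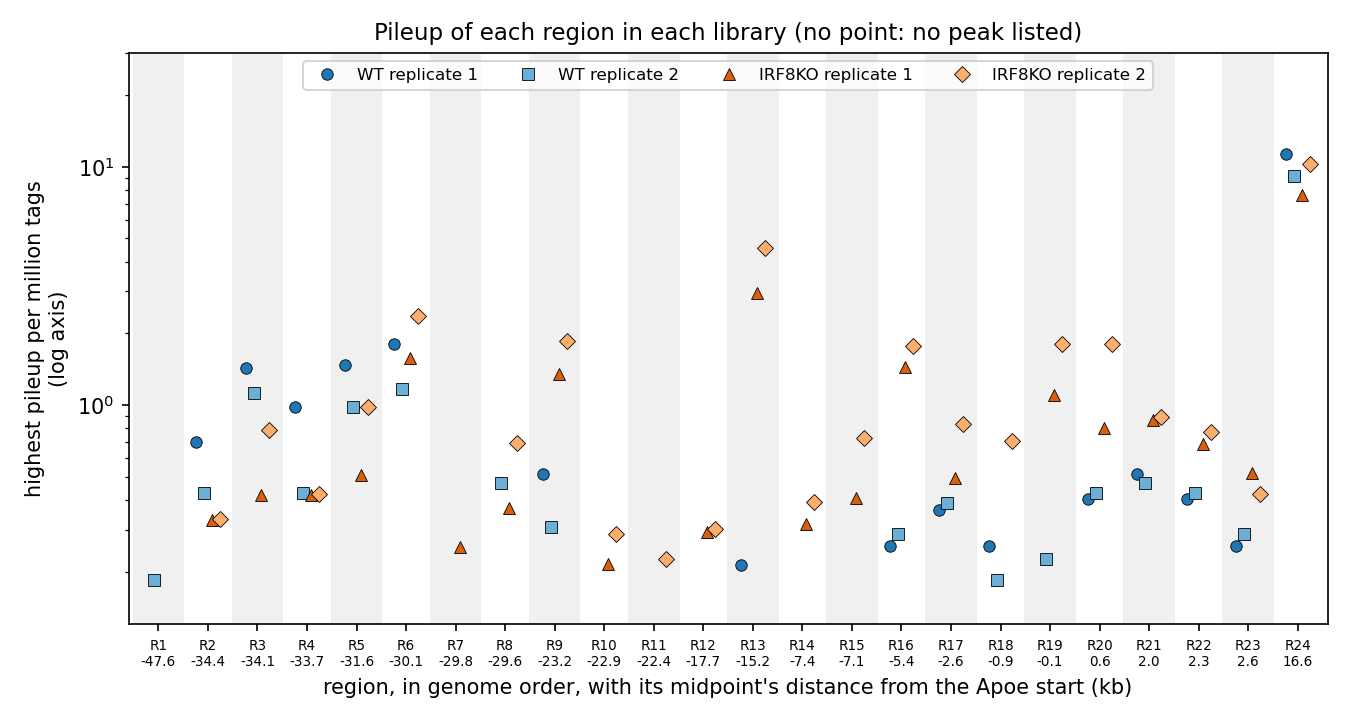
Highest scaled pileup (log axis) of the 24 regions in each library, in genome order, with distance from the Apoe start in kb; a missing point means that no peak was listed. IRF8KO points lie above WT from R9 to R23 wherever both are present, and below WT at R2 to R5.

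Between Apoc1 and Apoe, R16 (chr7:19693375-19694141) had a scaled pileup of 0.256 and 0.286 in WT against 1.45 and 1.77 in IRF8KO. The means were 0.271 ± 0.0217 and 1.61 ± 0.226 (SD, n = 2 each), a 5.93-fold difference without overlap. Each WT list held 1 summit in R16, whereas each IRF8KO list held 3. The summit at 19693551 was listed at the same base in both IRF8KO libraries, at 0.660 and 1.16, and it is the one whose sequence with the LXR type repeat is printed above. That repeat, GGTCACTGTCGGTCA at chr7:19693519-19693533, was the single match of its kind in the whole 67.61 kb window. It lies by a lower summit of R16 and not by the highest, at 19693726. Within 100 bp of the highest summit, 0 of the 24 window regions and 0.0823% of all 155546 regions held this repeat.

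Within Apoc2, the activator of lipoprotein lipase, the intronic R9 (chr7:19675840-19676156) gave 0.511 and 0.307 per 1000000 tags in WT and 1.35 and 1.86 in IRF8KO. The groups did not overlap, and the mean was 3.92-fold higher in IRF8KO. Next to it the intronic R10 was listed in IRF8KO alone, at 0.216 and 0.287, and R11, in untranslated sequence at an alternative Apoc2 start, was listed in IRF8KO replicate 2 alone, at 0.227. The Apoc2 gene body held 1 and 1 strict peaks in WT and 2 and 3 in IRF8KO.

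At the start of Apoc4, R12 was listed in IRF8KO alone, at 0.292 and 0.302 per 1000000 tags, and the second of these peaks was below the strict threshold. Within Apoc1, the inhibitor of lipoprotein enzymes, R14 gave 0.317 and 0.393 and R15 gave 0.406 and 0.725 in IRF8KO. Both are intronic and neither was listed in WT, so the Apoc1 body held 0 and 0 strict peaks in WT and 2 and 2 in IRF8KO. No merged region covered the annotated 5′ end of Apoc1. With −log10 q of at least 5, 1 of the 3 IRF8KO-only regions (R10, R14 and R15) was left. With a scaled pileup of 0.5 required in both IRF8KO libraries instead, 0 were left. In both settings a WT peak listed at any height still excluded a region, so that R13 and R16 could not count.

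At the Apoe start itself, R19 (chr7:19698855-19699327) was not listed in WT replicate 1. It gave 0.225 per 1000000 tags in WT replicate 2, from a peak below the strict threshold with 11 tags, and 1.10 and 1.81 in IRF8KO from 87 and 120 tags. Both IRF8KO values exceeded the single WT value, 6.48-fold on the mean (log2 ratio 2.70). The Apoe start thus had no strict peak in either WT library and had one in both IRF8KO libraries.

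The neighbour R20 (chr7:19699594-19699920), with its summit 525 bp upstream of the Apoe start, had a value in every library, 0.405 and 0.429 per 1000000 tags in WT and 0.7996 and 1.812 in IRF8KO. IRF8KO was higher without overlap, 3.13-fold on the mean, but its replicates were far apart, at 1.31 ± 0.716 (SD, n = 2). Of R20, 66.7% is soft-masked in the reference as repeat sequence, where short tags are harder to place. This limit is not confined to R20. Within 100 bp of the highest summit the soft-masked share was 62.2% at R20, 52.2% at R10 and 40.3% at R13, with R5 next at 23.4%.

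Inside Apoe, the coding R17 gave 0.362 and 0.389 per 1000000 tags in WT and 0.495 and 0.831 in IRF8KO. The coding R18 gave 0.256 and 0.184 in WT and 0.710 in IRF8KO replicate 2, and was not listed in IRF8KO replicate 1. The gene body held 1 and 1 strict peaks in WT and 2 and 3 in IRF8KO. Farther upstream, R21, R22 and R23, at and beyond the 3′ end of Tomm40, were each higher in IRF8KO without overlap, by 1.79, 1.75 and 1.74-fold on the mean. Their WT values spanned 0.256 to 0.511 and their IRF8KO values 0.423 to 0.891 per 1000000 tags.

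The background around Apoe was higher in IRF8KO. The deposited fold enrichment sets a summit against a background, which is the higher of a local value over 10 kb and a genome-wide floor of 0.0390 per 1000000 tags. The local value includes the peaks themselves, so that signal between the peaks was not measured apart from them. This background could be computed back from the pileup and the fold enrichment. At R17 in Apoe it was 0.0767 and 0.0691 per 1000000 tags in WT and 0.210 and 0.295 in IRF8KO. At R20 it was 0.0762 and 0.0676 in WT and 0.160 and 0.221 in IRF8KO. IRF8KO was higher at both places, whereas the background at the Clptm1 start (R3) overlapped, at 0.145 and 0.109 against 0.104 and 0.144. The ratio of the IRF8KO to the WT mean background lay between 2.52 and 3.46 at R16, R17 and R20 to R23, and between 0.880 and 0.979 at R2 to R6 and R24. At R9 both WT libraries were at the floor, so that their local value is not known and may be lower, and the same held for WT replicate 1 at R13.

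**Figure D3:**
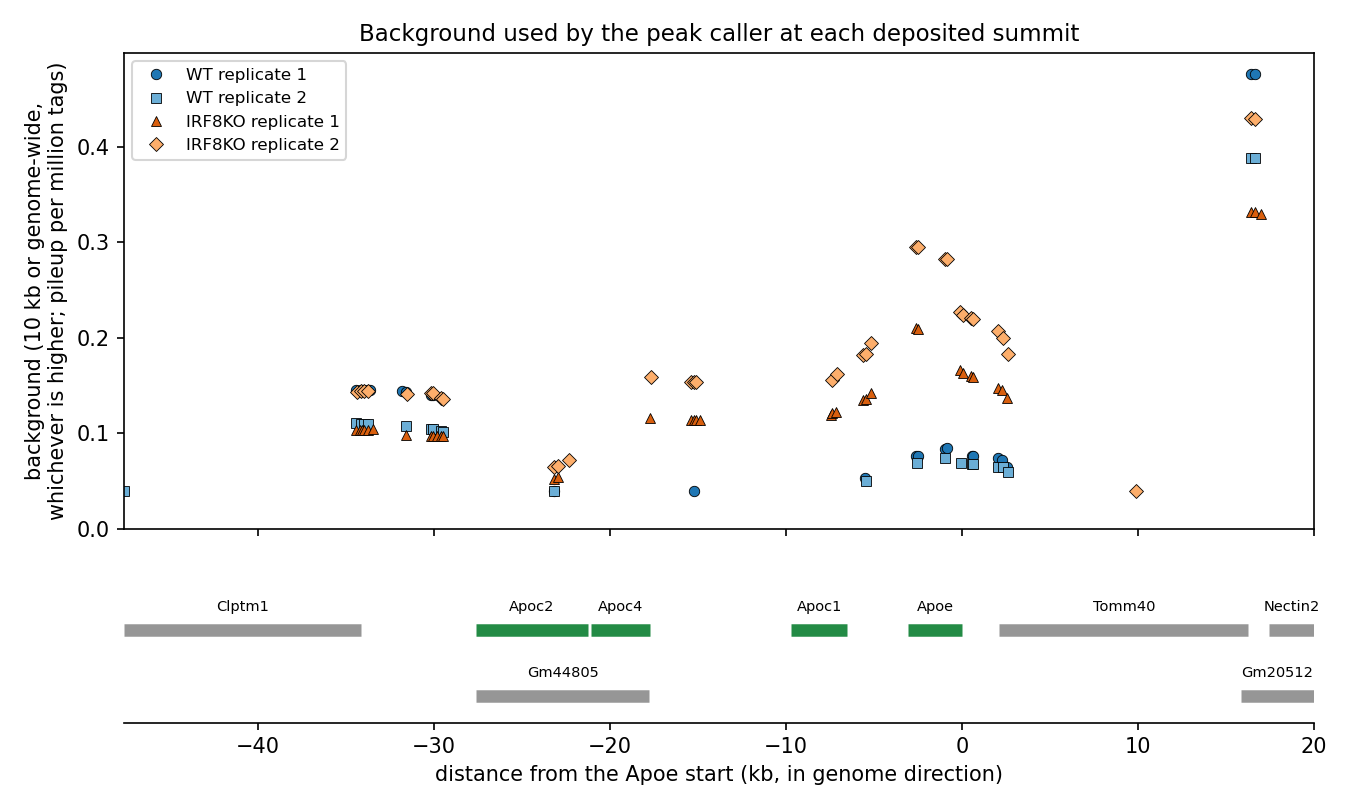
Background used by the peak caller, the higher of the 10 kb value and the genome-wide floor, per 1000000 tags, at every deposited summit of each library by distance from the Apoe start in kb, with genes beneath. From the Apoc4 start to the 3′ end of Tomm40 the IRF8KO points lie above the WT points, and over Clptm1 and the Tomm40 start they overlap.

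Height over this background differed between the regions, although a ratio over the floor is a lower bound of the height over the surroundings. The authors' fold enrichment at R16 was 3.72 and 4.37 in WT against 9.83 and 8.99 in IRF8KO. At R19 it was 2.75 in WT replicate 2 against 6.25 and 7.56. IRF8KO was thus higher at both, where no background was at the floor. At R9 it was 8.825 and 5.501 over the floor in WT and 21.03 and 23.63 over a local value in IRF8KO, and at R13 it was 3.88 over the floor in WT replicate 1 and 23.4 and 27.0 over a local value in IRF8KO. Whether R9 and R13 stood higher above their surroundings in IRF8KO is therefore not shown. R17 in contrast had 3.91 and 4.57 in WT and 2.28 and 2.73 in IRF8KO, lower although its pileup was higher. R20 overlapped, at 4.37 and 5.11 against 4.72 and 7.76.

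By the deposited ratio, floor included, 3 of the 13 regions were higher in IRF8KO (R6, R9 and R16; 18.2% of all regions) and 6 were lower (R2, R3, R5, R17, R21 and R22; 30.6% of all regions). The median log2 ratio of the 13 regions turned from 0.80 to −0.28, against −0.09 over all regions. Of the 7 regions with higher pileup, R16 was therefore higher over its surroundings as well, and R9 only by the deposited ratio. The higher pileup at R17, R20, R21, R22 and R23 did not come with a greater height over the surrounding 10 kb in both IRF8KO libraries.

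**Figure D4:**
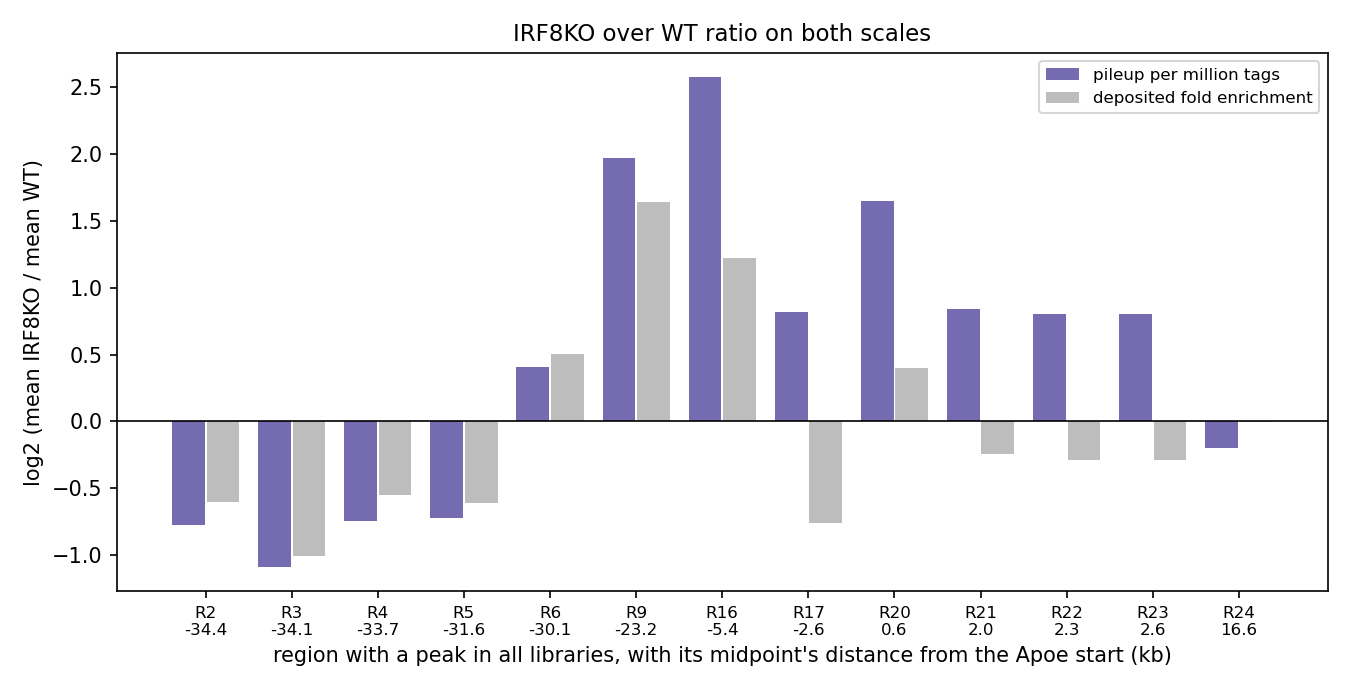
Log2 ratio of the IRF8KO over the WT mean for the 13 regions with a peak in all libraries, as scaled pileup (purple) and as deposited fold enrichment (grey), with distance from the Apoe start in kb. R6, R9 (whose WT ratios are over the floor), R16 and R20 are positive on both scales, and R17, R21, R22 and R23 change sign.

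Of the 8 regions before Apoc2, R2 to R5 were lower in IRF8KO. At the start of Clptm1, a gene for a membrane protein, R3 gave 1.43 and 1.13 per 1000000 tags in WT and 0.419 and 0.785 in IRF8KO. IRF8KO was lower without overlap (log2 ratio −1.08). R5 (chr7:19667488-19667756), between Clptm1 and Apoc2, gave 1.470 and 0.9817 in WT and 0.5077 and 0.9815 in IRF8KO, so that replicates 2 of both genotypes were nearly equal. R2 and R4 were lower too, spanning 0.4295 to 0.9798 in WT and 0.3300 to 0.4228 in IRF8KO, but with libraries scaled to an equal median they overlapped, while R3 and R5 were lower on that scale as well.

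Near the Apoc2 side of that interval, R6 gave 1.81 and 1.17 per 1000000 tags in WT and 1.57 and 2.37 in IRF8KO and overlapped, and it was higher in IRF8KO with equal medians. It held a CTCF type match, CCACTAGGGGGC at chr7:19669066-19669077. Beside it, R7 was listed in IRF8KO replicate 1 alone, at 0.254. R8 was not listed in WT replicate 1 and gave 0.470 in WT replicate 2 and 0.368 and 0.695 in IRF8KO, on both sides of the WT value. The Tomm40 start region R24 gave 11.3 and 9.16 in WT and 7.58 and 10.2 in IRF8KO. It overlapped by tags, with equal medians and by fold enrichment, with a log2 ratio of −0.20 by tags and 0.11 with equal medians.

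Motif letters were counted within 100 bp of the highest summit of each region, on both strands. The ETS-IRF composite was present in 1 of 24 window regions, R5, and in 4.31% of all regions. The whole window holds 5 such matches, 1 of them in a region, and none of the IRF8KO-only or higher regions held one. The interferon response type motif was present in R20 and in 3.12% of all regions. AP-1 letters were present in 0 of the 24 and in 8.11% of all regions, and the match printed above lies by a lower summit of R20. PU.1 was present in R5 and R17 (7.74% of all regions), CEBP in R8 and R13 (9.54%), RUNX in R11 and R13 (5.57%) and the STAT letters in R14 and R15 (5.91%). The E-box was present in R9 and in 4.09% of all regions. The CTCF letters CCNNNAGNNGGC were present in R6, R8 and R21 and in 9.23% of all regions. The GC box, present in 11% of all regions, was found in 10 of the 24. No window region held the NF-kB letters GGGANTTTCC (0.323% of all regions). A match describes letters and is not a bound site.

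Other genes of lipid handling were examined at their strongest promoter region. The list held 34 genes for LXR, RXR and SREBP factors, cholesterol exporters, lipoprotein receptors, lipid enzymes, storage and transfer proteins, and apolipoproteins and related genes elsewhere in the genome. A value in all 4 libraries was given for 28. Of these, 3 were higher in both IRF8KO libraries and 12 lower, with a median log2 ratio of −0.37. Over 12994 protein-coding promoters measured in the same way, 4.15% were higher and 40.1% lower, with a median of −0.31. With equal medians 5 of the 28 were higher and 6 lower, with a median of −0.07.

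The promoters most like R20 over the 4 libraries, by Euclidean distance between log2 values centred on their mean, were those of Ch25h, Apobr and Lrp8, at distances of 0.321, 1.10 and 1.24. R20 stands in here for the Apoe start region, which has no value in WT replicate 1. Ch25h, the enzyme that makes 25-hydroxycholesterol, gave 0.256 and 0.225 per 1000000 tags in WT and 0.457 and 0.846 in IRF8KO. Apobr, a receptor for apolipoprotein B particles, gave 0.703 and 0.675 against 1.12 and 1.19, and Lrp8, a receptor for apolipoprotein E and reelin, gave 0.9798 and 0.9612 against 1.22 and 1.48. The WT and IRF8KO values of these 3 promoters did not overlap, by tags or with equal medians. They were chosen for likeness to R20, itself higher in both IRF8KO libraries, so this follows largely from the choice and nothing is read from it.

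IRF8KO-only regions lay within 10 kb of 6 of the 34 genes, against 16.3% of 21728 protein-coding genes. They numbered 3 each at Plin2, which coats lipid droplets, and Mylip, which directs lipoprotein receptors to degradation, 2 each at Ch25h and the cholesterol exporter Abca1, and 1 each at Rxra and Sort1. WT-only regions lay within 10 kb of 7 of the 34, against 22.1% of genes. They numbered 5 at Sort1, 3 at the exporter Abcg1, 2 at Lipa and 1 each at Rxrb, Srebf2, Lpl and Fabp5. Sort1, a sorting receptor, had regions of both kinds.

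At the edges of the window, R1 lay partly inside and was listed in WT replicate 2 alone, at 0.184 per 1000000 tags. The nearest region outside on that side, 21936 bp away, gave 5.07 and 4.17 in WT against 2.89 and 4.32 in IRF8KO. The nearest on the other side, 11619 bp away, was listed in IRF8KO replicate 1 alone, at 0.152.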

How the data were processed

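Peak lists of 4 ATAC-seq libraries were used, grouped by the genotype in the labels. Per the submitters' processing notes, Bowtie2, MACS2 2.1.1.20160309 and the mm10 build (GRCm38) were used, and per the file headers peaks were called in each library separately at a p cutoff of 0.01. The deposited pileup is a signal, a whole-number depth not scaled for sequencing. The deposited fold enrichment is a ratio to the background, and the deposited p and q are −log10 values. The file headers announce no q-value, reported as -1, but the q column held other values, and every use of q here rests on that column. The authors' summit rows were reduced to peaks, and peaks with −log10 q of at least 2 were merged into regions with Python 3.11.15, pandas 2.3.3 and pysam 0.24.0 on 20 chromosomes, with an overlap of 1 bp counting as shared. A region's value is its highest summit. Pileup was divided by header tags, which assumes that it scales with them. Poisson p-values recomputed from the background matched the deposited ones within 1% for 98.6% to 99.6% of summits, and the steps were tested on simulated data. Annotation was GENCODE M21.

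The members and all gene, marker and motif lists were chosen with earlier results of these data known. The genes named were the 4 members and every region of their window, the lipid handling genes with a genotype-only region, and the 3 promoters most like the Apoe region. With 2 libraries a genotype no test was made. Alternatives changed the q threshold, overlap, flank, scaling, region value and libraries used, and fold enrichment in place of pileup was added after the data were seen.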

Additional observations from a re-analysis of the deposited data

How the results depend on the processing

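Of 56 values under alternative settings, 46 stayed within a spread, or for counts of regions within 1.5 times, 9 moved and 1 reversed. The spread was the larger SD between replicates for the difference in strict peaks. For log2 ratios it was the SD over pairs of an IRF8KO and a WT library. Some values could not change, such as the Apoe start ratio without WT replicate 1, which has no value there. IRF8KO-only regions, 3 as reported, were 1 at −log10 q of at least 5. They were 0 with a scaled pileup of 0.5 required in both IRF8KO libraries, where a WT peak listed at any height still excluded a region. With equal medians the median log2 ratio was 1.07 and the lower regions were 2. This scaling moved the median of all regions from −0.28 to 0.01. With the deposited fold enrichment, a scale chosen after seeing the data, the median log2 ratio reversed to −0.28 and 3 regions were higher. Leaving out each library in turn gave 5.5 to 6.5 for the difference in strict peaks and 4 to 5 for IRF8KO-only regions (5 without WT replicate 2 and 5 without IRF8KO replicate 2). WT-only regions were 0 to 1, with 1 without WT replicate 1. The median log2 ratio was 0.40 to 0.81, lowest without IRF8KO replicate 2, when the median of all regions was −0.62. The log2 ratio at the Apoe start was 2.30 to 3.01, with no value without WT replicate 2. Higher regions were 7 to 9 and lower regions 4 to 5, of 13 to 15 regions with a value, while the shares of all regions ranged from 12.3% to 33.9% higher and from 40.1% to 74.0% lower. The cause of these shifts was not tested. No paired analysis was possible because the results come from no test and the replicate numbers are not said to mark a shared animal or day. Depth limits what an unlisted peak can mean, since no height is given for it.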

Other observations

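Of the 78 deposited peaks in the window, 3 belonged to no merged region, each being below the strict threshold. They lay at 19667393 in WT replicate 1, at a scaled pileup of 0.383, at 19665706 in IRF8KO replicate 1, at 0.216, and at 19709092, inside Tomm40, in IRF8KO replicate 2, at 0.136.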
